A study of Mus musculus with 12 samples.

Results

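The aged wild-type retina was compared with the young one. The wild-type mice were Pilrb1/2+/+ animals on a C57BL/6J background, and their retinas were taken 28 days after birth (P28) or at 12 months of age. Both ages were represented by 3 libraries of poly(A) RNA, so 6 of the 12 libraries of the study entered this comparison. The other 6 came from Pilrb1/2 -/- mice of the same 2 ages, whose deletion, made by CRISPR and bred from a founder, also covers Pilra in the series text, and they were used to ask whether an age difference was seen in knockout retina too. No treatment was given to either age group. A gene was tested when its CPM, the count scaled to library size, was at least 1 in 3 or more of the 12 libraries, which left 16486 of 53028 genes in the table.

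The retina holds rod and cone photoreceptors, the bipolar, horizontal and amacrine interneurons, the ganglion cells whose axons form the optic nerve, and Mueller glia that span its depth. At P28 the mouse retina has only recently completed its differentiation. Microglia are its resident immune cells, and complement, interferon signalling and antigen presentation by MHC class I are routes by which immune activity is seen in neural tissue. Mueller glia respond to injury and stress with a set of changes called gliosis.

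The deposited gene values were CPM on a library size scaled by the authors, not raw counts. The read depth recovered from their smallest steps was 22.5, 22.4 and 25.9 M reads at 12 months and 25.0, 21.4 and 19.4 M reads at P28, so that 3 reads were worth 0.111 to 0.153 CPM. All 8 markers chosen to define retinal cell types were present in all 6 libraries, with Lhx1, a horizontal cell factor, at 3.17 to 5.0 CPM and Pde6b, a rod phosphodiesterase subunit, at 2037 to 2475 CPM. The labels give no sex, but Xist, the RNA expressed from the inactive X chromosome, was at 4966 and 5528 CPM in 12-month libraries 1 and 2 and at 6.38 to 8.53 CPM in the other 4 wild-type libraries, which held Y-linked transcripts. Thus 2 of the 3 12-month libraries were female and the 3 P28 libraries were male, and results are given below also with a term for sex and over male libraries only. In knockout retina the imbalance ran the other way, with 2 female libraries at P28 and none at 12 months. Whether each library is a separate animal is not in the labels, and the p-values below therefore cover only the spread from library to library, which may be technical.

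At 12 months 602 genes were higher (3.65% of those tested) and 289 were lower (1.75%) than at P28. A gene was counted when its adjusted p, from limma with Benjamini-Hochberg correction over all tested genes, was under 0.05. At an unadjusted p under 0.05 there were 3207 genes. In all 891 genes (5.4%) the 3 libraries of one age lay entirely above the 3 of the other, whereas over all tested genes such separation occurred in 18.9% upwards and 16% downwards. Differences are given on the log2(CPM + 1) scale as 12 months minus P28 with their standard error (SE), which understates changes of genes near 1 CPM. Most changes were modest. The difference exceeded 1 on that scale in 180 of the higher and 50 of the lower genes, and its median over all tested genes was 0.01.

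**Figure D1:**
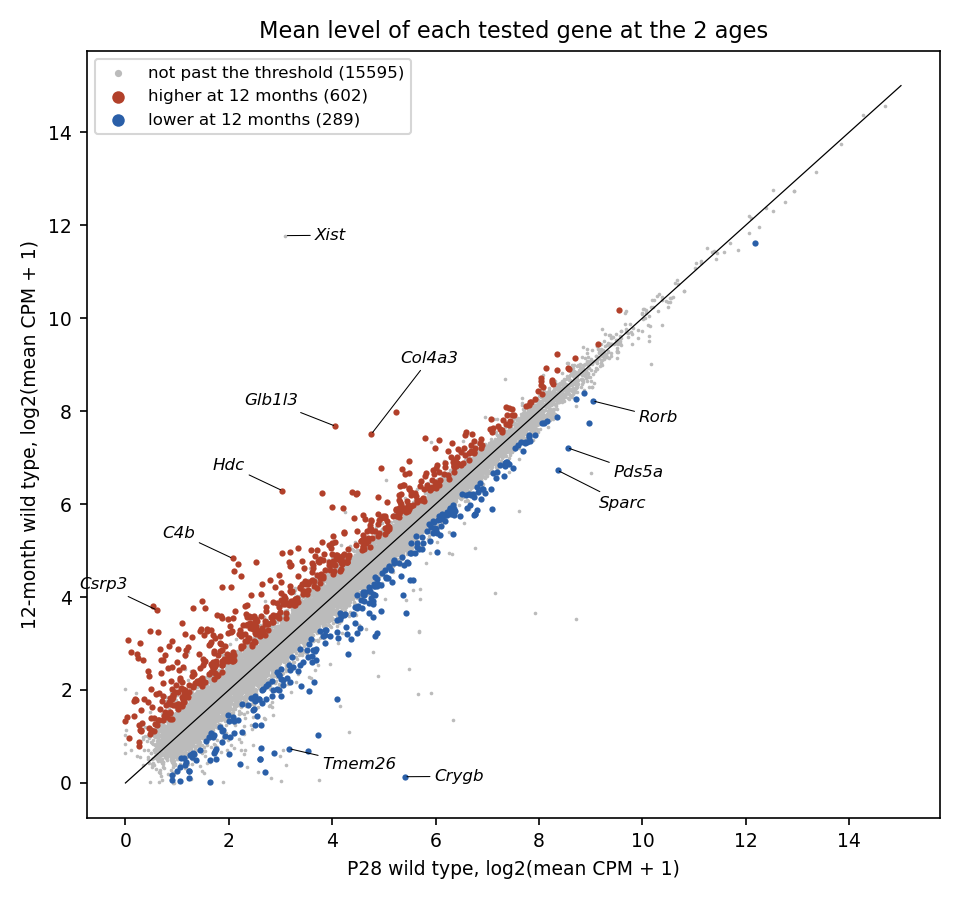
Each point is 1 tested gene, with its mean level over the 3 P28 wild-type libraries on the horizontal axis and over the 3 12-month wild-type libraries on the vertical axis, both as log2(mean CPM + 1). The line marks equal levels, and 602 genes past the threshold lie above it and 289 below it, while Xist lies far above the line but did not pass.

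The counts depended on how many libraries entered and on sex. Leaving out any 1 of the 6 libraries gave 307 to 389 higher and 111 to 150 lower genes, so each of the 6 moved both counts by more than 1.5 times. Of the 891 genes, 349 passed in all 6 of those fits. With a sex term 258 genes were higher (1.56%) and 103 lower (0.625%), and in male libraries only, where 1 12-month library faced 3 at P28, 184 were higher (1.12%) and 56 lower (0.34%). In that male fit the single aged library had no spread of its own and was assumed to vary like the other groups. All 891 genes kept their sign in both of these fits, and 345 and 230 of them passed. Xist itself did not pass (log2 difference 6.13 ± 2.50 SE, adjusted p = 0.196), and 26 of 559 tested X-linked genes did. X-linked genes made up 2.49% of the higher and 3.81% of the lower genes, beside 3.39% of all tested genes.

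The largest rise was in Glb1l3, which encodes a relative of lysosomal beta-galactosidase (ENSMUSG00000031966, GRCm38 chromosome 9, 26817953 to 26860890, minus strand). It was at 16, 16.1 and 15 CPM at P28 and at 204, 203 and 202 CPM at 12 months. The groups were far apart and varied little within themselves, with means of 15.7 ± 0.603 and 203 ± 0.994 CPM (SD, n = 3 each), a 12.9-fold ratio (log2 difference 3.61 ± 0.13 SE, adjusted p = 1.56e-08). The male library, the third of the aged ones, was within 2 CPM of the female ones, and with a sex term the adjusted p was 1e-06. In knockout the difference was 3.33 (adjusted p = 2.29e-08).

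Hdc, histidine decarboxylase, is the enzyme that makes histamine (chromosome 2, 126593667 to 126619299). It was at 8.44, 7.79 and 5.39 CPM at P28 and at 70.0, 73.7 and 87.5 CPM at 12 months, a 10.7-fold ratio of means (log2 difference 3.26 ± 0.42 SE, adjusted p = 0.000502). Every aged library exceeded every young one by a wide margin, and the male library was the highest. Csrp3, the muscle LIM protein, rose from 0.438, 0.755 and 0.383 CPM to 11.7, 9.62 and 15.1 CPM (3.10 ± 0.21 SE, adjusted p = 3.37e-06). In that gene the young libraries were all under 1 CPM and the aged ones all above 9 CPM.

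Col4a3, a chain of the basement membrane collagen type IV, was at 11.7, 13.9 and 52.5 CPM at P28 and at 178, 175 and 189 CPM at 12 months (chromosome 1, 82586921 to 82722059). Its neighbour Col4a4, which encodes a partner chain, was at 8.77, 11.8 and 32.2 CPM and at 56.6, 57.6 and 62.6 CPM. In both genes P28 library 3 stood above the other young libraries while the aged libraries clustered tightly. The log2 differences were 3.07 ± 0.53 SE (adjusted p = 0.00425) and 1.90 ± 0.43 SE (adjusted p = 0.0206). Col4a3 passed in all 6 fits without 1 library, but with a sex term its adjusted p was 0.056 and in males 0.073, and Col4a4 passed in neither (0.161 and 0.168). Col4a4 passed only without P28 library 3 (adjusted p up to 0.0901 without another library).

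The 12 largest rises were ranked over genes past the threshold without a predicted or clone name whose libraries did not overlap between ages. Among the 12 were also Tigd4, derived from a transposase, Ly75, an endocytic receptor of dendritic cells, Shisal2b, Slc37a2, a sugar phosphate exchanger, Lyz2, the lysozyme of myeloid cells, and Prok1, a secreted prokineticin. Their log2 differences ran from 2.23 for Prok1 to 2.58 for Tigd4, and each passed in all 6 fits that left out 1 library. Ly75 was at 3.20, 3.72 and 2.89 CPM in the young and 22.5, 21.3 and 23.4 CPM in the aged retina, a 6.86-fold ratio (adjusted p = 5.05e-07). Prok1 was at 1.70, 2.48 and 1.59 CPM and then at 13.4, 12.0 and 12.5 CPM (adjusted p = 3.15e-06). In these 2 genes the 3 aged libraries lay close together, male and female alike. Lyz2, which shares sequence with Lyz1, was lowest among the aged in the male library (12.6 against 20.7 and 19.7 CPM) and did not pass in males only (adjusted p = 0.12).

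**Figure D2:**
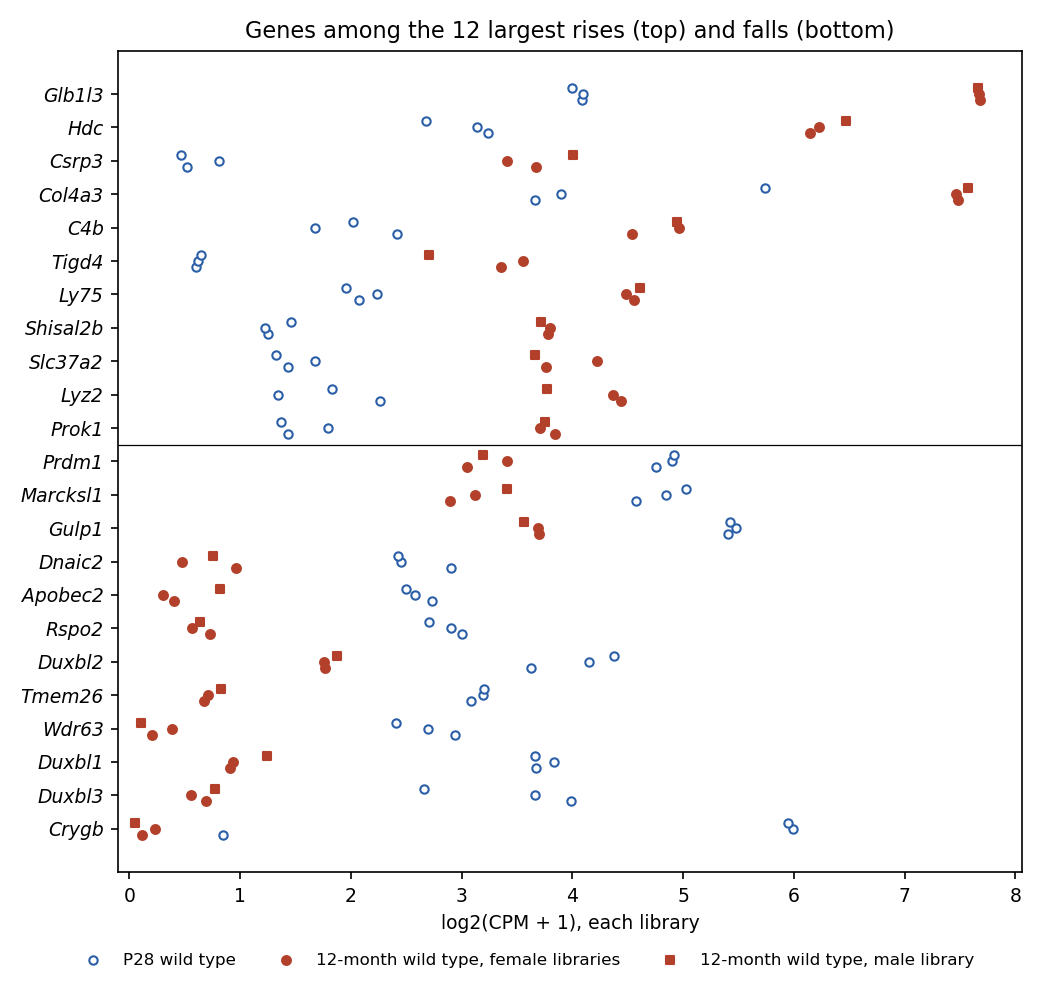
For genes named here among the 12 largest rises and the 12 largest falls past the threshold, each marker is the level of 1 wild-type library as log2(CPM + 1). P28 libraries are open circles, the 2 female 12-month libraries filled circles and the male 12-month library a filled square. In every gene shown the aged libraries lie outside the range of the young ones, which was a condition for choosing the genes.

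Among the falls, Prdm1 encodes Blimp1, a repressor that in the developing retina holds precursors to the photoreceptor fate (chromosome 10, 44437177 to 44528501). It was at 26.1, 28.8 and 29.2 CPM at P28 and at 7.27, 9.61 and 8.14 CPM at 12 months. The young libraries were all above 26 CPM and the aged ones all under 10 CPM, a 3.36-fold drop of the mean (log2 difference -1.64 ± 0.15 SE, adjusted p = 3.5e-05). Gulp1, an adaptor of phagocytic engulfment, was at 41.4, 43.5 and 41.9 CPM and then at 12.0, 11.9 and 10.9 CPM (-1.78 ± 0.19 SE, adjusted p = 0.000108). Rspo2, a secreted enhancer of Wnt signalling, was at 7.01, 6.47 and 5.51 CPM and then at 0.652, 0.482 and 0.552 CPM (-2.23 ± 0.25 SE, adjusted p = 0.000161). Each of these 3 genes passed with a sex term as well (adjusted p 0.00109 to 0.00411).

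Wdr63 and Dnaic2 encode dynein intermediate chains of motile cilia. Wdr63 was at 6.69, 5.47 and 4.32 CPM at P28 and at 0.150, 0.302 and 0.0765 CPM at 12 months (log2 difference -2.45 ± 0.25 SE, adjusted p = 8.87e-05). Dnaic2 was at 6.49, 4.49 and 4.38 CPM and then at 0.953, 0.393 and 0.689 CPM (-1.86 ± 0.23 SE, adjusted p = 0.000417). Both were readily detected in every young library, and Wdr63 was near or under the 3-read level in the aged ones. Tmem26, which encodes a membrane protein, was at 7.5, 8.15 and 8.19 CPM and then at 0.594, 0.641 and 0.772 CPM, and Apobec2, a member of the cytidine deaminase family, was at 5.64, 4.99 and 4.66 CPM and then at 0.321, 0.237 and 0.760 CPM. Both fell, by 2.42 and 2.10 on the log2 scale (adjusted p 0.000112 and 0.000161). The 12 largest rises and 12 largest falls were ranked without predicted or clone names. Of these 24 genes, 22 passed in all 6 fits that left out 1 library and 19 with a sex term.

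The double homeobox genes Duxbl1, Duxbl2 and Duxbl3 on chromosome 14 fell by 2.70, 2.25 and 2.76 on the log2 scale (adjusted p 0.00421, 0.00378 and 0.00128). They are near-identical copies among which reads can be split, so how much of the fall belongs to each copy is uncertain. Duxbl1 and Duxbl2 did not pass with a sex term (0.0609 and 0.0564). The remaining large falls were in Marcksl1, described with the genes of immature neurons, and in Crygb.

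Crygb, a gamma crystallin of the lens, had the largest fitted fall and the least even one (log2 difference -4.13 ± 1.05 SE, adjusted p = 0.0388). It was at 0.795, 62.9 and 60.6 CPM at P28 and at 0.0853, 0.172 and 0.0361 CPM at 12 months. P28 library 1 was thus close to the aged libraries while libraries 2 and 3 were high, and the call was lost without any 1 of 5 libraries, all but P28 library 1 (adjusted p up to 0.17), and with a sex term (0.178). The 25 genes of the lens list summed to 31.1, 804 and 2559 CPM in the young and 28.7, 50.9 and 77.9 CPM in the aged libraries (exact permutation p = 0.3, two-sided, where 0.1 is the smallest possible). All 20 that reached the level for testing had a fitted difference below 0 (median -2.05) and 1 passed. P28 library 3, the highest in lens transcripts, was also the highest young library for Col4a3, Col4a4, Sparc and Pdgfra, and the part of lens tissue in those 4 differences was not tested.

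Beyond single genes, 35 lists of retinal cell types, other tissues and pathways were read against the background of 3.65% higher and 1.75% lower genes. The interferon-stimulated list and the MHC list had the highest shares of higher genes, and in the photoreceptor lists 1 member in all passed.

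**Figure D3:**
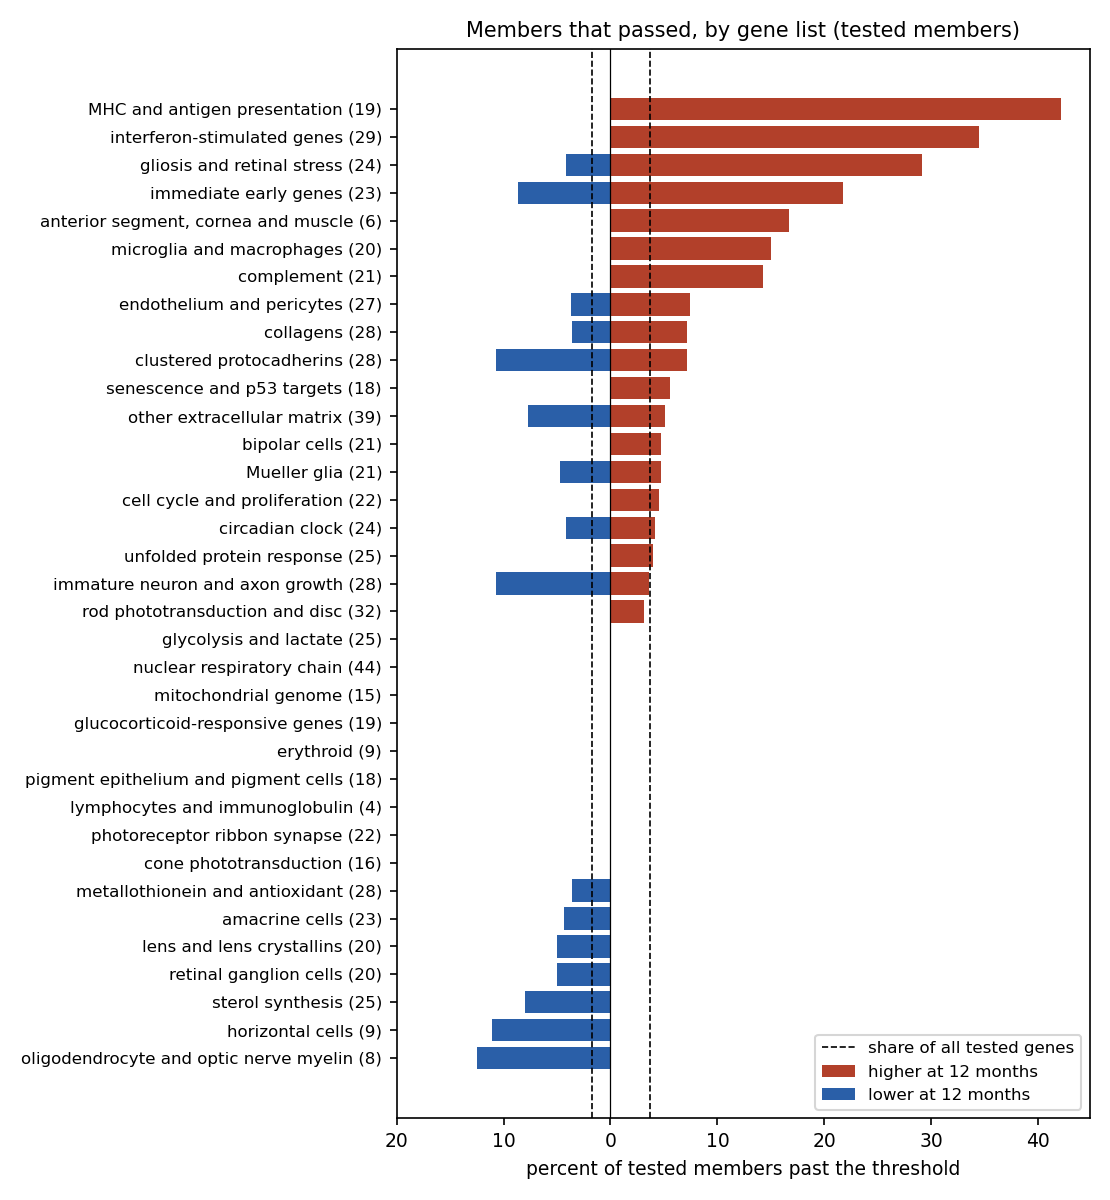
For each gene list the bar gives the percent of its tested members that were past the threshold, higher at 12 months to the right and lower to the left, with the number of tested members in brackets. The dashed lines mark the shares of all tested genes, 3.65% higher and 1.75% lower, and the MHC list (8 of 19) and the interferon-stimulated list (10 of 29) extend farthest to the right.

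Interferon-stimulated genes are switched on when interferons bind their receptors on the cell surface. Of 29 tested members 10 rose and none fell at 12 months, with a median log2 difference of 0.54 beside 0.01 over all genes. A positive difference was fitted for 26 of the 29, beside 52% of all genes. In 20 the aged libraries all lay above the young, beside 18.9% of all genes. In the order of signal to effector, the genes that rose included Irf9 of the receptor pathway, Irf7, an amplifier of type I interferon, and the effectors Ifit1, Oasl2, Rsad2, Ifi27, Parp14, Gbp2 and Mx2.

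Ifit1, which binds foreign RNA, was at 4.56, 3.51 and 4.08 CPM at P28 and at 11.9, 13.2 and 9.05 CPM at 12 months. The lowest aged library, the male one, was above the highest young library, and the means differed 2.82-fold (log2 difference 1.29 ± 0.17 SE, adjusted p = 0.000483). Oasl2, of the oligoadenylate synthetase family, was at 11.1, 11.1 and 11.6 CPM and then at 21.2, 28.6 and 20.8 CPM (0.98 ± 0.13 SE, adjusted p = 0.000714). Rsad2, the antiviral enzyme viperin, was at 1.35, 1.17 and 1.84 CPM and then at 3.88, 4.74 and 3.19 CPM (1.01 ± 0.16 SE, adjusted p = 0.00202). In all 3 genes 12-month library 2, a female one, was the highest and the male library the lowest.

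Irf9, a DNA-binding factor activated by interferon, was at 15.8, 15.5 and 14.1 CPM and then at 23.2, 25.6 and 26.8 CPM (log2 difference 0.70 ± 0.11 SE, adjusted p = 0.00202), with the male library highest. Its young and aged libraries did not overlap. Ifi27 had the largest difference of the list (1.53, adjusted p = 0.00224).

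The list's count was 7 to 10 with 1 library left out, 5 with a sex term and 1 in males only, where 1 aged library remained and the median difference was 0.48. In knockout retina 15 of the 29 members rose with age and none fell, beside 13.3% of all genes higher there (median 0.58). As context for the list, 300-base windows around the start sites (250 bases before to 50 after, RefSeq, GRCm38.p6) were searched on both strands for the interferon response element letters GAAANNGAAA, where N is any base. They were in 13 of 22 list members with a window but in 3 of the 6 of these that rose (not in Oasl2, Irf9 or Irf7), in 3 of 8 MHC genes that rose (H2-T22, H2-T23 and Erap1), in 20 of 370 genes that were higher at 12 months, in 434 of 11919 tested genes and in 3.44% of all windows. The windows of Ifit1 (chr19:34640639-34640938, plus strand), Rsad2 (chr12:26456403-26456702, minus strand), Gbp2 (chr3:142620413-142620712, plus strand) and H2-T22 (chr17:36042693-36042992, minus strand) are printed 5′ to 3′ to show where the letters lie, the first 3 being the interferon list's risen genes that hold them and H2-T22 an example from the MHC list. The letters are in capitals as they read on the gene's strand.
Ifit1: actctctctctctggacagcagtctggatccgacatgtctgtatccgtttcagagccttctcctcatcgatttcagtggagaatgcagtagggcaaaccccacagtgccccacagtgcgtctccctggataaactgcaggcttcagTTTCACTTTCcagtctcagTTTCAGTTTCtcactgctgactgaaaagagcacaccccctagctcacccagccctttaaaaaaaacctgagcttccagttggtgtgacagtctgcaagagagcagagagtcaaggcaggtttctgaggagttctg
Rsad2: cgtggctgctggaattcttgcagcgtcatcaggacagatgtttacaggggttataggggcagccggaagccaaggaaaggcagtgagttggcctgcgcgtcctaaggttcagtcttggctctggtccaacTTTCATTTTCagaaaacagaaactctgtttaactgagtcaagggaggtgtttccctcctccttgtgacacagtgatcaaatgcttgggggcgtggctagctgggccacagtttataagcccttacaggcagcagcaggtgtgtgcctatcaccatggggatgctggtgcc
Gbp2: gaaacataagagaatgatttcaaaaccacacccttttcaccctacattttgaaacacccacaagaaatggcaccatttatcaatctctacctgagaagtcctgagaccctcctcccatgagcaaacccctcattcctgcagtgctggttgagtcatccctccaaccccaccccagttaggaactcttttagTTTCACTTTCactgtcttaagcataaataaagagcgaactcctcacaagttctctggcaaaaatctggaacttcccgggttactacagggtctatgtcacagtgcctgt
H2-T22: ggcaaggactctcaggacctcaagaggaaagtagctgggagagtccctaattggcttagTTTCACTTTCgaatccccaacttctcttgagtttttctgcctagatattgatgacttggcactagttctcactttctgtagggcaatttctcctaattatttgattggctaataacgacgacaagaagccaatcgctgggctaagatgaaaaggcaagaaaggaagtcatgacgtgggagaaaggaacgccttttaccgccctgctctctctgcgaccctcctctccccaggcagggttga
Ifit1 holds them at 2 places and the other 3 windows at 1, in each case in the reverse-complement form. A match describes the sequence and does not show that a factor was bound.

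MHC class I molecules display peptides to T cells, and the list holds their heavy chains and the enzymes and transporters that load them. Of 19 tested members 8 rose and none fell (median log2 difference 0.66), 17 had a positive difference, and 14 had aged libraries all above the young. Over all tested genes 52% had a positive difference and 18.9% had aged libraries all above the young. The heavy chain gene H2-K1 was at 9.12, 8.54 and 11.5 CPM at P28 and at 24.3, 27.9 and 27.3 CPM at 12 months, a 2.73-fold ratio (1.37 ± 0.26 SE, adjusted p = 0.0075). The other classical heavy chain, H2-D1, was at 12.4, 12.5 and 12.9 CPM and then at 23.4, 20.4 and 20.3 CPM (0.72 ± 0.15 SE, adjusted p = 0.013). The young libraries were within 1 CPM of each other in H2-D1, and all aged libraries were above 20 CPM.

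The non-classical chains H2-T22 (0.76), H2-Q4 (0.78), H2-T23 (1.01) and H2-Q7 (0.71) also rose (adjusted p 0.00971 to 0.0485). So did Tap1, a subunit of the peptide transporter (0.66, adjusted p = 0.0288), and Erap1, the peptidase that trims peptides for loading (0.73, adjusted p = 0.0301). The class I heavy chains share long stretches of sequence, so the division of reads among them is uncertain. B2m, the light chain they share, was at 36.0, 22.3 and 34.5 CPM in the young and 47.1, 46.6 and 36.3 CPM in the aged libraries. The aged libraries were all above the young, but the gene did not pass (0.49, adjusted p = 0.33). The count of 8 became 3 to 5 without any 1 of the 6 libraries, 2 with a sex term and 1 in males only, with a median of 0.53 in males. In knockout retina 7 of the 19 tested members rose with age and 1 fell. Over all tested genes 13.3% were higher and 13.9% lower there.

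**Figure D4:**
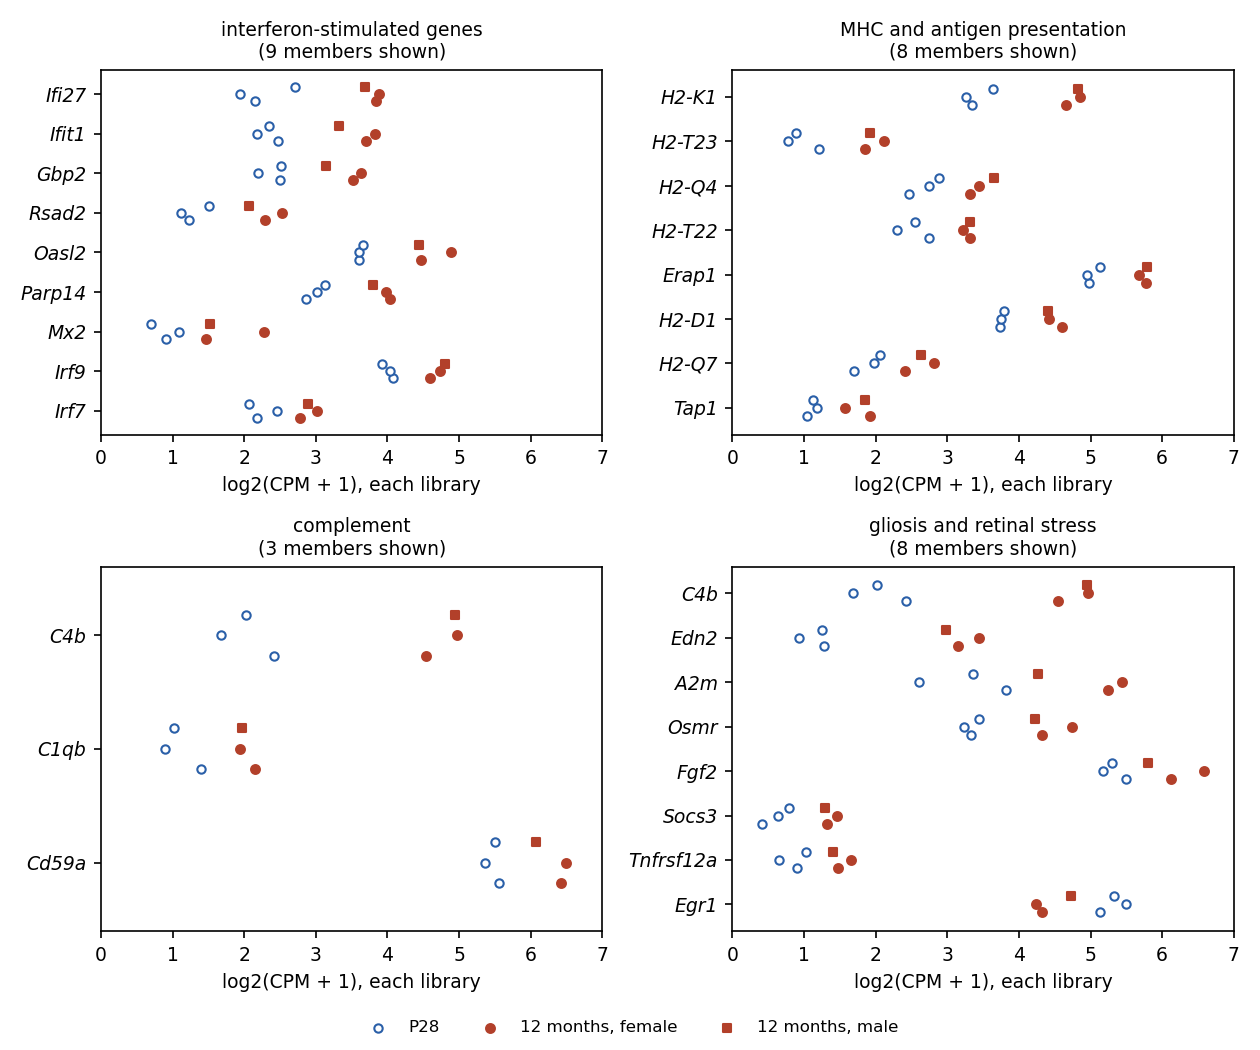
Members past the threshold in 4 lists are shown, each marker being the level of 1 wild-type library as log2(CPM + 1), with P28 libraries as open circles, female 12-month libraries as filled circles and the male 12-month library as a square. The aged libraries lie above the young ones in every gene shown but Egr1, where they lie below.

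Complement tags synapses and debris for removal by microglia. Of 21 tested members 3 rose and none fell (median log2 difference 0.46). C4b, of the classical pathway, had the largest rise in this list (chromosome 17, 34728380 to 34743882). It was at 4.35, 2.21 and 3.07 CPM at P28 and at 22.3, 30.2 and 29.9 CPM at 12 months, an 8.57-fold ratio. The male and one female aged library were equally high, and the call was kept with a sex term and in males (2.78 ± 0.35 SE, adjusted p = 0.000417, then 0.0085 and 0.006). C4b is a near copy of C4a, so reads may be divided between them.

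C1qb, a chain of the initiating complex C1q, was at 1.63, 0.855 and 1.03 CPM and then at 3.45, 2.83 and 2.92 CPM (0.92 ± 0.19 SE, adjusted p = 0.0124). Its partner chains C1qa (0.49, adjusted p = 0.114) and C1qc (0.58, adjusted p = 0.0613) did not pass. Cd59a, an inhibitor of the terminal complement complex, rose by 0.86 (adjusted p = 0.00806). The call for C1qb was lost without 12-month library 1 or P28 library 2 or 3 (adjusted p up to 0.0623), and that for Cd59a without 12-month library 2 (0.0506). Neither passed with a sex term. In knockout retina 2 of the 21 tested complement genes rose with age and none fell, with a median of -0.15. Over all tested genes 13.3% were higher there.

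Microglia and macrophage markers showed a smaller shift. Of 20 tested members 3 rose (Lyz2, Siglech and Ctss) and none fell, with a median log2 difference of 0.32. The summed level of all 26 genes of the list was 82.1 to 100.1 CPM in the young and 119 to 149 CPM in the aged libraries. Siglech, a lectin of microglia, was at 2.96, 3.45 and 2.78 CPM and then at 5.65, 5.41 and 5.73 CPM (0.70 ± 0.15 SE, adjusted p = 0.0147), while P2ry12, the purinergic receptor of resting microglia, was at 4.73, 3.50 and 5.15 CPM and then at 4.41, 3.41 and 3.61 CPM (-0.18, adjusted p = 0.638). Siglech lost its call without any 1 of 5 libraries, all but P28 library 2 (adjusted p up to 0.0739), and Ctss, a lysosomal protease, without any 1 of the 6 (up to 0.148), and the list's count became 1 in 5 of them and 2 without P28 library 2. The list had 1 member past the threshold with a sex term and 0 in males. In knockout retina 2 of the 20 tested members rose with age and 3 fell (median -0.16). Over all tested genes 13.3% were higher and 13.9% lower there. In RNA from whole tissue, more cells of a type and more RNA per cell cannot be told apart. Only 4 of 24 lymphocyte genes reached the level for testing, and none passed. The part of immune cell number in the complement, interferon and MHC differences was not tested.

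Genes of gliosis and retinal stress were mixed. Of 24 tested members 7 rose and 1 fell (median log2 difference 0.14). Edn2, an endothelin released by stressed photoreceptors, was at 1.43, 0.900 and 1.38 CPM at P28 and at 7.83, 9.90 and 6.88 CPM at 12 months, a 6.64-fold ratio (2.04 ± 0.31 SE, adjusted p = 0.00173). Osmr, the oncostatin M receptor, was at 9.05, 8.37 and 9.89 CPM and then at 19.1, 25.8 and 17.7 CPM (1.1 ± 0.16 SE, adjusted p = 0.000999). In both genes the ages were fully separate and the male library was the lowest of the aged.

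Socs3, a feedback inhibitor of that signalling (0.74, adjusted p = 0.0063), A2m, a protease inhibitor (1.72, adjusted p = 0.0138), Fgf2, a growth factor that protects photoreceptors (0.85, adjusted p = 0.0154), and Tnfrsf12a, the TWEAK receptor (0.65, adjusted p = 0.025), also rose, and C4b is counted here too. Egr1, an immediate early gene, fell by 0.89 (adjusted p = 0.0468), a call lost without any 1 of the 6 libraries and with a sex term. Gfap, the filament protein most used as a sign of gliosis, was at 10.7, 7.24 and 13.1 CPM in the young and 9.77, 12.3 and 11.3 CPM in the aged retina. Its libraries overlapped and it did not pass (0.13 ± 0.25 SE, adjusted p = 0.829). In knockout retina 1 of the 24 tested list members rose with age and 2 fell (median -0.02). Over all tested genes 13.3% were higher and 13.9% lower there. The count of 7 became 4 without 12-month library 1 or 2 or P28 library 2, 4 with a sex term and 2 in males.

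The share of photoreceptor genes past the threshold was not above that of all tested genes (3.65% higher and 1.75% lower). Of 32 tested genes of rod phototransduction and the rod disc 1 passed (median log2 difference 0.10). Of 16 cone genes none did (median -0.07, limma), nor did any of 22 genes of the photoreceptor ribbon synapse (median 0.00). In 10 of the 32 rod genes the aged libraries were all above the young, and in 5 all below. Over all tested genes these shares were 18.9% and 16%. The counts were 4 and 2 in the cone list and 3 and 6 in the ribbon synapse list. Changes as small as these medians were mostly not detectable, so the calls do not show that these genes were stable. Gucy2e, the guanylate cyclase that restores cGMP after light, was the member that passed. It was at 566, 596 and 532 CPM and then at 704, 704 and 681 CPM (0.30 ± 0.08 SE, adjusted p = 0.0424), and the call was lost without any 1 of the 6 libraries (adjusted p 0.0629 to 0.192) and with a sex term (0.232). The cone opsin gene Opn1mw was at 166, 148 and 140 CPM and then at 127, 114 and 106 CPM, separate between ages but short of the threshold (-0.39, adjusted p = 0.0552).

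Among the inner neurons, ganglion cell genes leaned downwards. Of 20 tested members 1 fell, 19 had a negative difference (median -0.35), and in 12 all aged libraries were below the young ones. Over all tested genes 52% had a positive difference, and in 16% all aged libraries were below the young ones. Chrna6, a nicotinic receptor subunit, was at 177, 157 and 165 CPM at P28 and at 120, 117 and 118 CPM at 12 months. The aged values were nearly equal and all below the young (-0.49 ± 0.08 SE, adjusted p = 0.00295), and the call held in all 6 fits that left out 1 library and with a sex term, but not in males (0.102). Slc17a6, the vesicular glutamate transporter of ganglion cells, was at 111, 120 and 125 CPM and then at 83.0, 84.3 and 83.7 CPM but did not pass (-0.50, adjusted p = 0.0781). Thy1, a surface marker of ganglion cells, overlapped between ages (-0.02, adjusted p = 0.973). The 21 genes of the list found in the table summed to 1393 to 1526 CPM in the young and 1097 to 1185 CPM in the aged libraries.

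In each of the bipolar, amacrine and horizontal cell lists 1 member passed, of 21, 23 and 9 tested. Over all tested genes 3.65% were higher and 1.75% lower. Prdm8, a bipolar cell factor, rose (32.6, 43.1 and 42.1 CPM against 65.3, 63.4 and 60.0 CPM, log2 difference 0.68, adjusted p = 0.00421). Its call was lost with GC and length trends removed (0.52, adjusted p = 0.0839) and in males, where the difference was 0.61. Calb2, calretinin, fell from 222, 222 and 234 CPM to 159, 161 and 171 CPM (-0.46, adjusted p = 0.00866), a call that ended with a sex term (0.098) and in males (0.181). Calb1, calbindin, was lower by 0.73 (adjusted p = 0.0216), but lost its call without any 1 of the 6 libraries (up to 0.0896) and with a sex term (0.155). Mueller glia had 1 gene higher, the water channel gene Aqp4 (0.57, adjusted p = 0.0165), and 1 lower, Spc25 (-0.56, adjusted p = 0.0331), of 21. Neither of these 2 passed with a sex term, and leaving out 1 library ended the call in 3 of 6 fits for Aqp4 (12-month library 1 or 2, or P28 library 2) and in 5 for Spc25 (all but P28 library 2).

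Genes of immature neurons and axon growth had a median of -0.29 over 28 tested members, of which 3 fell and 1 rose. Marcksl1, an actin-binding relative of MARCKS, was at 22.8, 27.8 and 31.6 CPM at P28 and at 6.45, 7.69 and 9.60 CPM at 12 months, a 3.47-fold drop (-1.68 ± 0.33 SE, adjusted p = 0.0105). Sox4, a transcription factor of new neurons, was at 17.0, 23.6 and 23.3 CPM and then at 7.06, 8.15 and 10 CPM (-1.24 ± 0.28 SE, adjusted p = 0.0228). The ages were separate in both, and in 15 of the 28 members all aged libraries were below the young, beside 16% of all tested genes. Dpysl3, of the growth cone, also fell (-0.47, adjusted p = 0.0239), and Ephb1, an ephrin receptor, rose (0.63, adjusted p = 0.0296). Marcksl1 lost its call without 12-month library 1 or P28 library 3 (up to 0.0543), Sox4 without any 1 of 4 libraries (12-month 1 or 2, P28 2 or 3, up to 0.0993), and the other 2 without any 1 of the 6 (up to 0.125). With a sex term none of the 3 falls passed (Marcksl1 0.125, Sox4 0.194 and Dpysl3 0.184), and in males 1 did. In knockout retina 12 members fell with age and none rose, beside 13.9% of all genes lower there.

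Rorb, a nuclear receptor needed for rod and interneuron differentiation and placed here with the clock genes, was at 516, 546 and 515 CPM and then at 277, 302 and 311 CPM (chromosome 19, 18930605 to 19111196). Every aged library was far below every young one (-0.82 ± 0.09 SE, adjusted p = 0.000117), also with a sex term (0.0027) and in males (0.015). Of 24 tested clock genes 1 rose and 1 fell, and the rise lost its call without any 1 of the 6 libraries and with a sex term. In knockout retina the Rorb difference was -0.15 (adjusted p = 0.207), and the difference between genotypes did not pass (adjusted p = 0.052).

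Immediate early genes, transcribed within minutes of stimulation, moved in both directions. Of 23 tested members 5 rose and 2 fell (median 0.00). Nr4a3, an orphan nuclear receptor, was at 1.42, 2.36 and 1.26 CPM and then at 5.68, 5.62 and 6.12 CPM (1.36 ± 0.20 SE, adjusted p = 0.00151), and Atf3, a stress transcription factor, was at 5.14, 3.54 and 2.89 CPM and then at 10.2, 8.86 and 9.75 CPM (1.15 ± 0.22 SE, adjusted p = 0.00795). Fos went the other way, from 23.4, 27.6 and 27.1 CPM to 13.9, 13.5 and 17.1 CPM (-0.77 ± 0.13 SE, adjusted p = 0.0032). These 3 genes passed in all 6 fits without 1 library, while the list's count of 5 rises was 2 without 12-month library 1 or 2 or P28 library 1, 3 without 12-month library 3 or P28 library 2, and 4 without P28 library 3. The 2 falls became 1 in each of the 6 fits. With a sex term the 5 rises became 1 and the 2 falls 1, and Atf3 did not pass (0.0802). In males no member of the list passed (Nr4a3 0.0561, Atf3 0.148 and Fos 0.182). Time of day at collection is not given in the sources used here.

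In the extracellular matrix, 2 of 28 collagens rose (Col4a3 and Col4a4) and 1 fell (Col3a1), and of 39 other matrix genes 2 rose and 3 fell. Sparc, a collagen-binding matricellular protein, was at 292, 215 and 474 CPM at P28 and at 104, 107 and 104 CPM at 12 months (-1.56 ± 0.26 SE, adjusted p = 0.00316). The aged libraries were almost equal, and among the young library 3 was the highest. Without that library Sparc still passed, as it did in all 6 such fits, but in males it did not (adjusted p = 0.15). Its relative Sparcl1 (-0.36, adjusted p = 0.0188) and Hapln1, which links hyaluronan to proteoglycans (-1.0, adjusted p = 0.0296), also fell, and each lost its call in 4 of the 6 fits (up to 0.0918 and 0.112). Hapln1 did not pass with a sex term (0.21), and in males none of the 39 did. Col3a1 lost its call without any 1 of 5 libraries, all but P28 library 2 (up to 0.134), and with a sex term (0.175).

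Sterol synthesis had 2 of 25 genes lower and none higher (median -0.09). Dhcr7, the last enzyme of cholesterol synthesis, was at 23.1, 19.4 and 19.3 CPM and then at 10.6, 9.02 and 9.70 CPM (-1.0 ± 0.17 SE, adjusted p = 0.00365). Dhcr7 passed neither with a sex term (0.0509) nor in males (0.11). The list's other call was lost in each of the 6 fits that left out 1 library. Cell cycle genes had 1 of 22 higher. That was Bub1b, a kinase of the mitotic checkpoint, at 23, 24.2 and 15.4 CPM in the young and 69.2, 79.2 and 70.8 CPM in the aged retina (1.78 ± 0.20 SE, adjusted p = 0.000143), and it passed with a sex term (0.00372).

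No member passed in limma among 25 genes of glycolysis, 44 nuclear genes of the respiratory chain, 15 mitochondrial genes, 19 glucocorticoid-responsive genes and 18 pigment epithelium genes, whose medians were 0.13, -0.09, -0.19, 0.12 and 0.16. The glucocorticoid-responsive genes nevertheless summed to 714 to 765 CPM at P28 and to 905 to 960 CPM at 12 months. The sums of the other lists in this group overlapped between ages. The mitochondrial genome's share of all signal was 7.36 to 9.31% at P28 and 7.36 to 8.29% at 12 months (exact permutation p = 0.3, two-sided). The 4 globin genes, which mark blood, did not pass. The 11 genes of the red cell list found in the table summed to 155, 161 and 171 CPM at P28. At 12 months they summed to 143, 132 and 120 CPM, all below the young (exact permutation p = 0.1, two-sided, the smallest possible). Endothelial and pericyte genes had 2 of 27 higher (Plvap and Flt1) and 1 lower (Slco1a4), senescence and p53 targets 1 of 18 higher (Cdkn2c), unfolded protein response genes 1 of 25 higher (Ern1) and antioxidant genes 1 of 28 lower (Txn1). Of those 6 genes, none passed in more than 1 of the 6 fits without 1 library, and with a sex term only Slco1a4 passed (0.00245).

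At the level of transcripts, measured in RPKM, which scales reads by transcript length and library size, and tested on log2(RPKM + 0.5), 283 of 46931 were higher (0.603%) and 102 lower (0.217%) at 12 months. They came from 338 genes, and 325 of the 385 (0.82% of those tested) belonged to genes that passed as a whole. All 4 tested transcripts of Glb1l3 rose, led by the coding Glb1l3-203 from 5.36, 6.06 and 6.49 RPKM to 57.2, 61.6 and 60.9 RPKM (3.23 ± 0.14 SE, adjusted p = 2.18e-06). The young and aged values were again far apart. For Hdc the coding Hdc-201 went from 1.89, 1.59 and 1.79 RPKM to 17.7, 15.6 and 19.0 RPKM (adjusted p = 0.00194).

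In 1 gene transcripts passed in opposite directions. Slc17a5 encodes sialin, the lysosomal exporter of sialic acid. Its coding transcript Slc17a5-201 was at 3.99, 4.65 and 4.18 RPKM at P28 and at 1.61, 0.736 and 0.876 RPKM at 12 months (-1.64 ± 0.20 SE, adjusted p = 0.00367). The coding Slc17a5-202 was under 0.01 RPKM in P28 libraries 1 and 2 and at 0.759 RPKM in library 3, and then at 1.74, 2.89 and 2.97 RPKM (2.13 ± 0.38 SE, adjusted p = 0.03). Slc17a5-201 was thus the higher of the pair in every young library, and Slc17a5-202 in every aged one. These are kallisto's divisions of reads between overlapping forms. In knockout retina the same 2 transcripts moved by -3.05 (adjusted p = 5.14e-05) and 2.92 (adjusted p = 0.00232).

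To see whether the wild-type age differences were also present in knockout retina, the 2 age contrasts were set side by side. They share no library but share 1 estimate of the spread. Of the 891 genes, 599 (67.2%) passed in the same direction in knockout, which is 13.4% of the 4483 genes that passed there (27.2% of those tested). The sign was the same in 828 (92.9%), beside 53.8% of all tested genes, and 7 genes passed in the opposite direction.

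**Figure D5:**
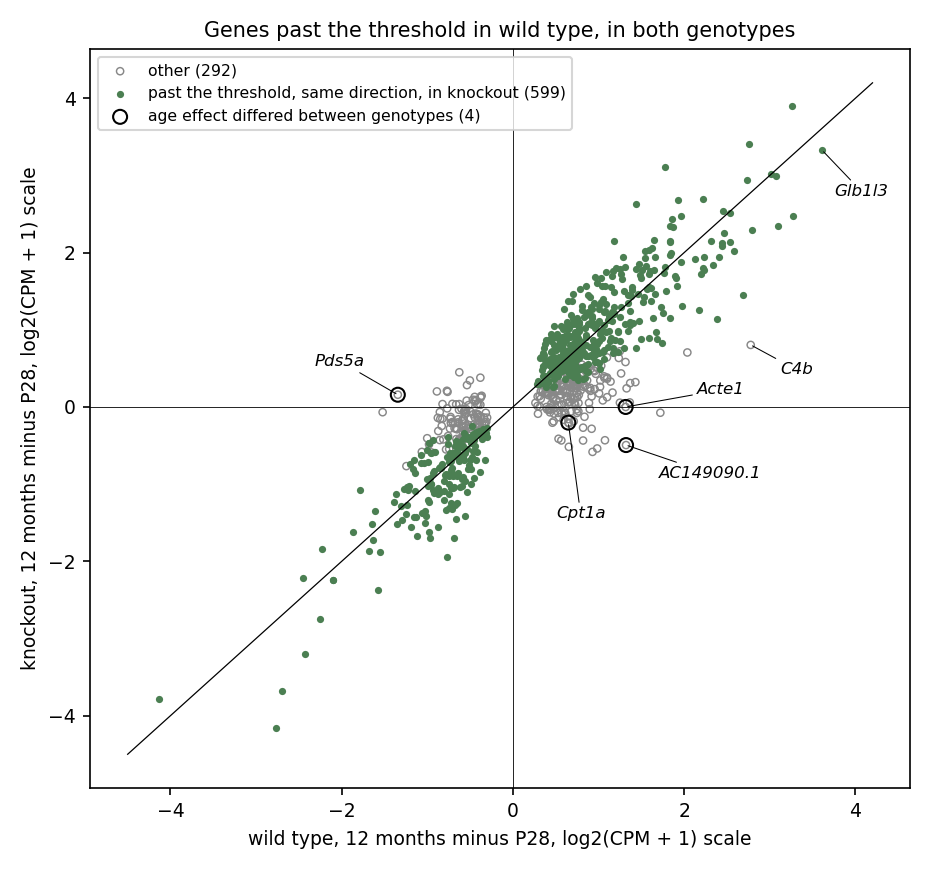
Each point is 1 of the 891 genes past the threshold in wild type, with the wild-type difference between ages on the horizontal axis and the knockout difference on the vertical axis, both on the log2(CPM + 1) scale. The 599 filled points also passed in the same direction in knockout, the line marks equal differences, and the 4 ringed genes had age differences that differed between genotypes.

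The difference between the genotypes' age effects was tested directly, and 29 genes passed (0.176%), beside 4397 at an unadjusted p under 0.05. Of these, 4 had also passed in wild type. Pds5a, a regulator of the cohesin ring, was the clearest (ENSMUSG00000029202, chromosome 5, 65605721 to 65698273). In wild type it was at 351, 397 and 375 CPM at P28 and at 142, 158 and 141 CPM at 12 months (-1.34 ± 0.09 SE, adjusted p = 3.68e-06). In knockout it was at 181, 168 and 210 CPM and then at 207, 218 and 196 CPM (0.16, adjusted p = 0.224). The young wild-type libraries stood above the other 9, and the age effects differed by -1.50 ± 0.13 SE (adjusted p = 0.000958).

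The fall was seen in the coding transcripts Pds5a-201, from 45.8, 47.8 and 45.5 RPKM to 13.6, 12.8 and 10.8 RPKM (-1.87 ± 0.16 SE, adjusted p = 0.000395), and Pds5a-212, from 47.0, 55.6 and 55.6 RPKM to 16.6, 19.9 and 18.4 RPKM (-1.50 ± 0.22 SE, adjusted p = 0.00926). The third tested coding form, Pds5a-209, was at -1.62 (adjusted p = 0.0592), and no retained-intron form of the gene passed. The difference between genotypes for Pds5a passed without each of the 6 wild-type libraries in turn (adjusted p 0.00318 to 0.00864), as it did for no other of the 29 genes, and with GC and length trends removed (0.000481). With a sex term, under which no gene passed, its adjusted p was 0.0554.

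The other 3 were Cpt1a, the carnitine palmitoyltransferase that admits fatty acids to mitochondria, Acte1, an actin gene, and AC149090.1, a gene on the scaffold JH584304.1. Cpt1a was at 178, 172 and 159 CPM and then at 255, 258 and 288 CPM in wild type (0.65 ± 0.10 SE, adjusted p = 0.0014), and moved by -0.20 in knockout (adjusted p = 0.129). Acte1 was listed at 0 in the 3 young wild-type libraries and all 6 knockout libraries and was at 1.04, 1.77 and 1.74 CPM in the aged wild-type libraries, at least 9.93-fold higher than the 3-read level of the shallowest young library. It reached the level for testing only through those aged libraries, the group in which it was high. It shares sequence with other actin genes. AC149090.1 was at 60.6, 76.2 and 61.0 CPM and then at 181, 151 and 166 CPM in wild type (1.32, adjusted p = 0.000455), against -0.49 in knockout (adjusted p = 0.046).

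Other members named above differed less clearly. In knockout the difference of C4b was 0.80 (adjusted p = 0.102), that of Edn2 0.71 (0.105), that of Osmr 0.38 (0.0843) and that of Fos 0.21 (0.232). For none of these 4 did the difference between genotypes pass (adjusted p 0.0695, 0.099, 0.09 and 0.052).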

How the data were processed

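Poly(A) RNA of mouse retina was sequenced in 12 libraries, as 125-base paired reads of stranded mRNA libraries per the labels' protocols. Per the submitters' processing notes and the series text, reads were quantified with kallisto 0.45.0 on Ensembl 102, brought to gene level with tximport 1.30.0 and scaled in edgeR 4.0.3. A human reference is named there, whereas the table carries mouse identifiers, of which the GRCm38 annotation holds 51903 of 53028. The gene values deposited by the authors are a signal, CPM per TMM-scaled library, and the transcript values deposited by the authors are RPKM. Neither table holds counts. Depth was read back from the value of 1 read, and a level of 3 reads covers counting error only.

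Genes with CPM of at least 1 in at least 3 libraries were fitted in R 4.3.3 by limma 3.58.1 as log2(CPM + 1), using 4 group means over all 12 libraries, eBayes with a trend, and Benjamini-Hochberg adjustment at 0.05. Transcripts with RPKM of at least 0.5 in at least 3 libraries were fitted as log2(RPKM + 0.5). Contrasts were 12 months minus P28 in wild type, the same in knockout, and their difference. Sums were compared by exact permutation. Named are the 12 largest rises and 12 largest falls with a gene symbol and no overlap between ages, the 4 members of each list with the smallest p among those that passed, genes with transcripts that passed in opposite directions, genes whose age effect differed between genotypes, and members added to make a count clear. The comparison, the gene lists and the rules were chosen with earlier results of these data known.

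A library with Xist above 100 CPM was taken as female. Alternatives were other pseudocounts (0.1 and 5), filters, quantile and median-of-ratios scaling, summed transcript RPKM, array weights, robust eBayes, wild-type libraries only, a replicate block, a sex term, male libraries only, removal of GC and length trends (splines of 5 degrees of freedom), a threshold of 0.10, and fits without 1 library. Removal of 165 repeated rows from the tested genes was chosen after seeing the data. Simulated data for this contrast had 16486 genes, of which 200 were changed, with noise drawn independently for each gene. On these data limma recovered 20% of genes changed by -0.5, 40% by 0.5, 82% by 1 and 100% by 2 on the log2 scale, and 1.63% of calls were false. Effects shared across a library, such as sex, were not simulated, so that share is not the error rate of the real calls. Figures used Python 3.11.15 and matplotlib 3.10.9. The raw reads were not analysed here, and some genes that the rule names are not reported here.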

Additional observations from a re-analysis of the deposited data

Results flagged for a closer look

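For 10 genes of the lists or of the named set the age effect differed between genotypes in limma's test of the difference itself, given here as wild type minus knockout on the log2(CPM + 1) scale. It was -1.50 for Pds5a (adjusted p = 0.000958), 0.85 for Cpt1a (0.041), 1.32 for Acte1 (0.0329) and 1.81 for AC149090.1 (0.0244), the 4 that had also passed in wild type. Acte1 was tested only through the aged wild-type libraries, the group in which it was high. In the other 6 the wild-type difference did not pass and the knockout one did. These were mt-Nd3 (-1.80, adjusted p = 0.0244) and mt-Nd2 (-1.45, 0.0478), both subunits of respiratory complex I, Hk2, a hexokinase (-1.24, 0.041), Hmgb2, a chromatin protein (-1.02, 0.0329), Col23a1, a transmembrane collagen (0.89, 0.0478), and Cx3cr1, the fractalkine receptor of microglia (1.05, 0.0478). The knockout rise was not particular to mt-Nd3 and mt-Nd2. All 15 tested mitochondrial genes passed as higher with age in knockout (median 1.11), while none passed in wild type (median -0.19).

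In wild type mt-Nd3 was at 539, 621 and 685 CPM at P28 and at 723, 821 and 862 CPM at 12 months, and in knockout at 323, 443 and 430 CPM and then at 1844, 2256 and 1388 CPM. Cx3cr1 was at 4.23, 4.83 and 4.96 CPM and then at 6.44, 6.71 and 5.57 CPM in wild type, and at 7.87, 6.6 and 7.5 CPM and then at 4.00, 4.33 and 4.03 CPM in knockout. Without each wild-type library in turn, 9 of the 10 lost the call in at least 1 fit, and with a sex term all 10 did (adjusted p 0.0554 for Pds5a and 0.158 to 0.169 for the others). Female libraries were 2 of 3 at 12 months in wild type and 2 of 3 at P28 in knockout.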

How the results depend on the processing

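No alternative reversed the direction of a named gene that passed. With a sex term or in male libraries only, 7 sex-chromosome check genes that had not passed turned sign, among them Xist, from 6.13 to -0.13 and -0.15. Counts that moved by more than 1.5 times from 602 higher and 289 lower genes were 1637 and 1247 with array weights, 1351 and 942 with wild-type libraries only, 258 and 103 with a sex term, and 184 and 56 in male libraries only. Lower genes alone moved to 522 with GC and length trends removed (764 higher) and to 512 at an adjusted p of 0.10. Without 1 library there were 307 to 389 higher and 111 to 150 lower genes. Transcripts, 283 higher and 102 lower, went to 96 and 30 with a sex term, to 203 lower with wild-type libraries only, and to 105 to 144 higher and 34 to 39 lower without 1 library. The 29 differences between genotypes became 0 with a sex term (2962 at an unadjusted p under 0.05), 2 with GC and length trends removed, and 1 to 2 without 1 library.

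The replicate block gave 467 higher and 200 lower genes, 178 higher and 54 lower transcripts and 4 differences between genotypes. The deviations of same-numbered libraries correlated at 0.20, -0.08 and -0.07, and 1 of the 3 12-month libraries correlated best with its own number, so the numbers were not taken to pair the samples. The block took 12 of the 89 named genes across the threshold, a sex term 37, the male libraries alone 47, and the fits without 1 library 18 to 32 each. With 3 libraries a group, differences of 0.5 or less on the log2 scale were mostly not detectable.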

Other observations

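Processed pseudogenes, copies of messenger RNAs set back into the genome, were higher at 12 months in 53 of 281 tested (18.9%), beside 3.07% of 14247 protein-coding genes, and lower in 3. Of the 53, 43 also passed upwards in knockout, where 68 of the 281 were higher, beside 13.3% of all tested genes. Of all 891 genes that passed in wild type, 67.2% passed in the same direction in knockout. The count of 53 was 64 with GC and length trends removed, 49 with summed transcript RPKM, 45 with quantile normalization, 30 to 40 without 1 library, 21 with a sex term and 18 in male libraries only. The median level of the tested processed pseudogenes over both ages was 3.59 CPM, beside 21.1 CPM for protein-coding genes. These copies share reads with their parent genes. Long intergenic noncoding RNAs were higher in 51 of 726 (7.02%) and lower in 20. The 51 became 26 to 37 without 1 library, 24 with a sex term and 22 in male libraries only, and the 20 became 7 and 2 in the latter fits.

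The median GC content of annotated transcripts was 47.5% for higher genes, 46.7% for lower genes and 48.5% for all tested genes, and the median lengths were 2982, 2934 and 2681 bases.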
